A study of Mus musculus with 6 samples.

Results

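The genes described here encode 9 enzymes of serine synthesis and folate one-carbon metabolism: Phgdh, Psat1, Psph, Shmt1, Shmt2, Mthfd1, Mthfd1l, Mthfd2 and Aldh1l2. They were taken by symbol, through GENCODE mouse release M21, from the 48820 genes of the deposited count table, and all 9 were found. The measurements are RNA-seq counts from spheroids of 4T1, a mouse triple-negative breast cancer line grown here as 3-dimensional aggregates in RPMI medium with fetal bovine serum. 3 libraries are labelled LATS1/2 double-knockout (dKO) and 3 are labelled wild type (WT), with LATS1 and LATS2 being the Hippo pathway kinases that restrain the coactivators YAP and TAZ. The labels call the libraries biological replicates and do not name cultures or clones. The p-values therefore cover only library-to-library spread, part or all of which may be technical. In bulk RNA, fewer cells of a type and less RNA per cell cannot be told apart.

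Cells build serine from the glycolytic intermediate 3-phosphoglycerate, by oxidation, transamination and dephosphorylation. Serine then hands a carbon unit to tetrahydrofolate, either in the cytosol or in mitochondria, and mitochondria oxidise that unit and export it as formate for use in purine, thymidylate and methionine synthesis. Proliferating tumour cells commonly express the mitochondrial arm strongly, and several of its genes are known targets of the stress-induced transcription factor ATF4.

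Total counts ran from 38194478 to 42486146 in the libraries labelled dKO and from 40150225 to 49630116 in WT libraries. Lats1 stood at 51.5, 53.0 and 48.0 CPM (counts scaled to library size) in dKO 1, dKO 2 and dKO 3 and at 158, 146 and 155 CPM in WT 1, WT 2 and WT 3. Lats2 went against the label, at 86.7, 83.3 and 63.5 CPM in dKO 1, dKO 2 and dKO 3 and at 28.3, 30.5 and 22.7 CPM in WT 1, WT 2 and WT 3. Lats2 shares 2955 exonic bases with Gm49361 on the same strand, which is not in the count table. The labels do not describe the edits, and a small edit in the coding sequence need not lower a gene's count. Neither Lats1 nor Lats2 mRNA therefore checks the label, and all differences are given for the libraries by their labels. WT 2 and dKO 3 lay apart from their groups on the second principal component, which held 5.81% of the variance. Epithelial markers were abundant, with 8 summed at 5018 to 5741 CPM in the libraries labelled dKO and 6180 to 6298 CPM in WT. Of 9 leukocyte markers, 3 were tested and all 3 were higher in the libraries labelled dKO, where the 9 summed to 77.0 to 209 CPM against 3.38 to 16.5 CPM in WT. Most of the sum in the libraries labelled dKO was Csf1r, at 188, 189.65 and 62.7 CPM in dKO 1, dKO 2 and dKO 3 and 3.55, 14.2 and 1.013 CPM in WT 1, WT 2 and WT 3. Csf1r shares 873 exonic bases with Hmgxb3. Cd68, also tested and higher, averaged 15.6 ± 1.80 CPM in the libraries labelled dKO and 2.15 ± 0.21 CPM in WT (SD, n = 3 each). The pan-leukocyte gene Ptprc was at 0.105, 0.418 and 0 CPM in those libraries labelled dKO and at 0 in WT, near the detection floor of 12 counts, or 0.279 to 0.314 CPM in the libraries labelled dKO. Of 9 fibroblast markers, 3 were tested, with 2 lower and 1 higher, and the 9 summed to 4.54 to 7.57 CPM in the libraries labelled dKO and 37.2 to 59.4 CPM in WT. Pdgfra, the most abundant of them in WT, was at 2.40 ± 0.55 CPM in the libraries labelled dKO and 38.2 ± 8.53 CPM in WT (SD, n = 3 each), and Col1a1 was also lower. Col1a2 was the higher one, at 0.718 CPM in the libraries labelled dKO and 0.033 CPM in WT, and Lum and Thy1 were at 0 in every library. The 6 endothelial markers stayed at or below 1.46 CPM in sum in every library. The part of these markers in the results below was not tested.

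The promoters of the members that moved most are shown here because the genes changed together, with the start sites and bases taken from RefSeq on GRCm38.p6. Each line gives the 250 bases before the start site, read 5′ to 3′ on the strand of the gene, with every CCAAT box (CCAAT, or ATTGG where it lies on the other strand) in capitals. The windows are chr3:98339970-98340219 for Phgdh, chr19:15925060-15925309 for Psat1, chr6:83317605-83317854 for Mthfd2 and chr10:127522445-127522694 for Shmt2, all on the minus strand.
Phgdh: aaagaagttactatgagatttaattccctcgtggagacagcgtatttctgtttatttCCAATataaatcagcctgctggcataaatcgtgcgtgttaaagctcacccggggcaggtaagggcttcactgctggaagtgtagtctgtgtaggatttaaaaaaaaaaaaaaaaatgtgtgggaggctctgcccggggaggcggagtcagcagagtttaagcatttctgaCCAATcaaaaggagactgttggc
Psat1: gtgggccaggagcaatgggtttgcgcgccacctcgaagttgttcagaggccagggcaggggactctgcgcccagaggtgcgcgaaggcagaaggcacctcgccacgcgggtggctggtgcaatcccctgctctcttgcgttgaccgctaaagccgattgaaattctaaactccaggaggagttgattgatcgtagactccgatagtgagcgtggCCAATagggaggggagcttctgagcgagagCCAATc
Mthfd2: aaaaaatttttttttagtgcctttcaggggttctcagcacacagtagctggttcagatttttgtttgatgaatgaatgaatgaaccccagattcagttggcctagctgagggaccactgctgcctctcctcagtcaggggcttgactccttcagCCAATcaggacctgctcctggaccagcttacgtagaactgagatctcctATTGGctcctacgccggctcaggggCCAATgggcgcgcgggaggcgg
Shmt2: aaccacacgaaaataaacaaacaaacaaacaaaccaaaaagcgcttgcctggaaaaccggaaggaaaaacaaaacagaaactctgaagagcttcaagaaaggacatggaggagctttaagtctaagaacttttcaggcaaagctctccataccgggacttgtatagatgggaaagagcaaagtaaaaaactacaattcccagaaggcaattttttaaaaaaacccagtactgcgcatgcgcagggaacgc

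RefSeq windows of 300 bases, 250 before and 50 after a start site, were available for 8 of the 9 genes, as 9 windows since Psat1 has 2. The CCAAT box lay in 6 of the 9 windows, against 37.4% of all 32851 windows of the same length. These belong to 6 of the 8 genes, namely Phgdh, Psat1, Psph, Mthfd2, Shmt1 and Mthfd1. Mthfd2 held 3 matches and Shmt2 and Mthfd1l held none. Whether the box goes with the size of the rise was not tested. This motif was chosen after the windows had been read. The C/EBP-ATF response element TGATGNAA, to which ATF4 dimers bind, was in no window of the 8 genes and in 3.97% of all windows. Neither the cyclic AMP response element TGACGTCA nor the E-box CACGTG lay in them, against 1.79% and 7.15% of all windows. The TEAD site GGAATG, recognised by the partners of YAP, lay once, in the Mthfd1 window on the other strand, against 14.7% of all windows. All motifs were searched on both strands and share no bases in these windows. Except for the CCAAT box, the shares over all windows were so low that 9 windows cannot show a lack. Bases outside the windows were not searched. For comparison, the window of the asparagine synthetase gene Asns, a textbook ATF4 target, held 1 C/EBP-ATF match, shown in capitals within 40 bases of the minus strand at chr6:7693209-7693248.
Asns: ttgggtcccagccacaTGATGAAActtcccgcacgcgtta

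**Figure D1:**
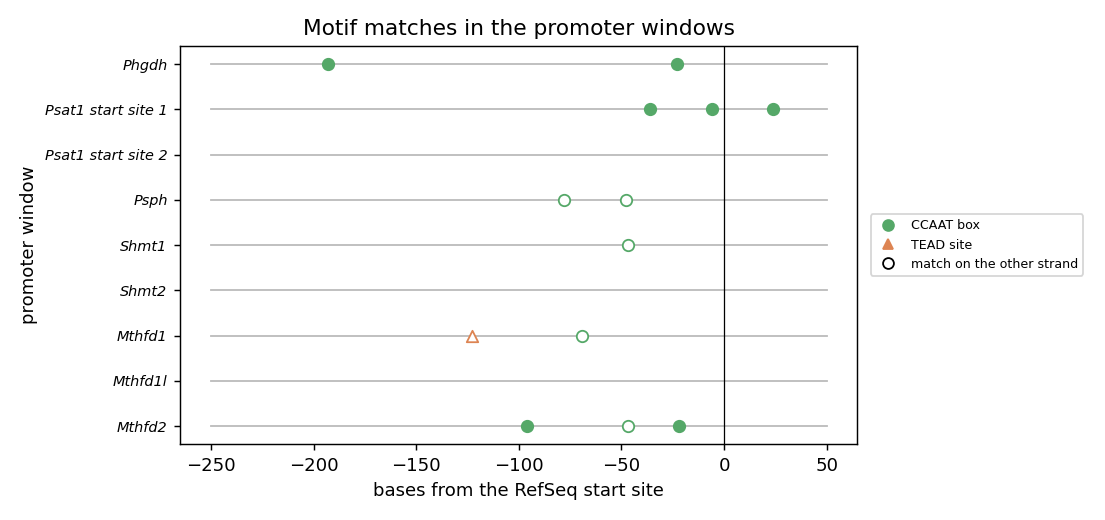
Each grey line is 1 RefSeq promoter window of a member gene, and the x axis gives bases from its start site. Green circles mark the first base of a CCAAT box and the orange triangle that of the TEAD site, with open symbols for the other strand; the windows of Mthfd1l, Shmt2 and the other Psat1 start site are empty.

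All 8 members that passed the filter on low counts rose in the libraries labelled dKO, and none fell. Aldh1l2 did not pass that filter. In the fit over all genes, 57.3% of tested genes were called in either direction at a Benjamini-Hochberg adjusted p under 0.05 by edgeR's quasi-likelihood test. Of all tested genes, 28.6% were called higher and 28.7% lower. The median log2 fold change was 1.80 over the 8 members and -0.01 over all 15807 tested genes. Against a minimum change of 1.5-fold, 6 of the 8 members were higher and none lower, where 13.9% of all tested genes were higher and 14.9% lower. The 8 members also had groups that did not overlap, with the libraries labelled dKO higher, as in 32.7% of tested genes, and 65.6% of tested genes had groups that did not overlap in either direction. Together the 9 genes took 0.239%, 0.241% and 0.254% of all counts in dKO 1, dKO 2 and dKO 3, against 0.0482%, 0.0536% and 0.0477% in WT 1, WT 2 and WT 3.

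**Figure D2:**
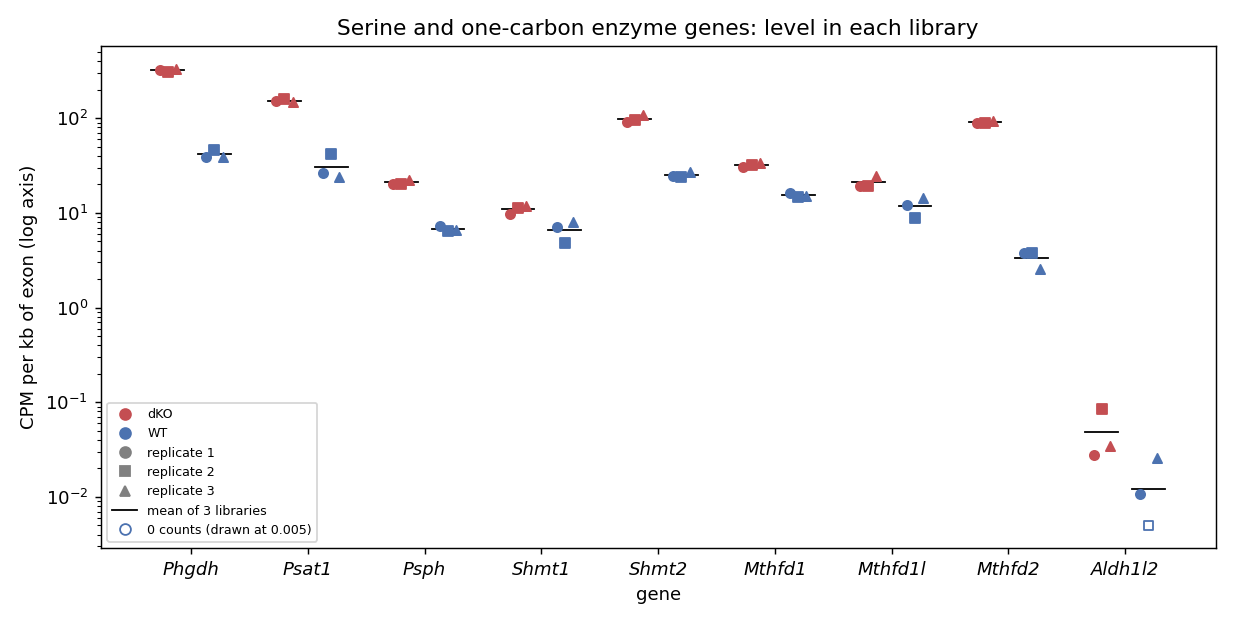
Each point is 1 library, with CPM per kb of annotated exon on a log axis, libraries labelled dKO in red to the left of WT libraries in blue, and black bars for the mean of 3. All 3 red points lie above all 3 blue points for each gene, but Aldh1l2 stays near the floor, under 0.1 CPM per kb in every library.

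Phgdh (ENSMUSG00000053398, GRCm38 chromosome 3, 98313170 to 98339990, minus strand) encodes phosphoglycerate dehydrogenase, which commits 3-phosphoglycerate to serine. It stood at 796, 769 and 828 CPM in dKO 1, dKO 2 and dKO 3 and at 97.8, 115 and 97.6 CPM in WT 1, WT 2 and WT 3. The groups were far apart, and libraries within a group differed by a coefficient of variation of 3.71% in the libraries labelled dKO and 9.88% in WT. On the log2 scale it rose by 2.94 ± 0.09 (SE), a 7.70-fold ratio of means, with an adjusted p of 4.75e-08 by edgeR. Among 15807 tested genes it ranked 52 by adjusted p and 622 by log2 fold change.

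Psat1 (ENSMUSG00000024640, chromosome 19, 15904678 to 15947337, minus strand) encodes phosphoserine aminotransferase, which moves an amino group from glutamate in the next step. Its levels were 649, 671 and 627 CPM in dKO 1, dKO 2 and dKO 3 and 112, 179 and 103 CPM in WT 1, WT 2 and WT 3. WT 2 was the high library of its group, and the WT coefficient of variation of 31.5% compares with 3.43% in the libraries labelled dKO. The log2 fold change was 2.30 ± 0.20 (edgeR adjusted p = 3.73e-05), and 2.59 without WT 2 (adjusted p = 2.73e-07).

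Psph (ENSMUSG00000029446, chromosome 5, 129765558 to 129787449, minus strand), the gene of phosphoserine phosphatase, which releases free serine, was the least abundant of the 3 synthesis genes. Psph read 87.2, 88.3 and 96.7 CPM in dKO 1, dKO 2 and dKO 3 against 31.4, 27.7 and 28.4 CPM in WT 1, WT 2 and WT 3. No library stood out within its group. Psph rose by 1.64 ± 0.09 on the log2 scale (edgeR adjusted p = 9.5e-07). It shares 452 exonic bases, 10.4% of its exon length, with Cct6a on the other strand, and Cct6a itself rose by 0.65 ± 0.08 (edgeR adjusted p = 0.000138). The strand setting is not given, so reads in that stretch may not have been told apart.

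Per kb of exon, a scale that allows genes to be compared, the 3 synthesis genes summed to 494.5 ± 7.71 CPM per kb in the libraries labelled dKO and 79.3 ± 13.6 CPM per kb in WT (SD, n = 3 each). Phgdh, at 321 ± 11.9 CPM per kb, was well above Psat1, at 153 ± 5.24 CPM per kb, in the libraries labelled dKO. In WT the ranges of Phgdh and Psat1 overlapped, at 41.7 ± 4.12 and 30.9 ± 9.73 CPM per kb.

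Mitochondrial enzymes came next. Shmt2 (ENSMUSG00000025403, chromosome 10, 127517123 to 127522444, minus strand) encodes the mitochondrial serine hydroxymethyltransferase, which splits serine into glycine and a folate-bound carbon unit. Levels of Shmt2 were 286, 294 and 333 CPM in dKO 1, dKO 2 and dKO 3 and 77.1, 74.5 and 83.6 CPM in WT 1, WT 2 and WT 3. The groups were clearly separate, with dKO 3 highest among the libraries labelled dKO. The log2 fold change was 1.96 ± 0.08 (edgeR adjusted p = 2.87e-07). Shmt2 shares 32 exonic bases with Ndufa4l2 on the other strand, which did not pass the count filter.

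Mthfd2 (ENSMUSG00000005667, chromosome 6, 83305691 to 83325908, minus strand) had the largest change of the 8. It encodes the mitochondrial methylenetetrahydrofolate dehydrogenase and cyclohydrolase, an enzyme of embryonic and transformed cells that most adult tissues express little. Mthfd2 reached 313, 312 and 323 CPM in dKO 1, dKO 2 and dKO 3, against 13.2, 13.1 and 8.97 CPM in WT 1, WT 2 and WT 3. Counts were ample in both groups, at 11959 to 13874 per library labelled dKO and 416 to 653 per WT library, so the fold does not rest on values at the floor. Its log2 fold change was 4.75 ± 0.15 (edgeR adjusted p = 6.02e-08), a 26.9-fold ratio of means, at rank 362 of 15807 by log2 fold change. Within the group labelled dKO it was also the steadiest member, with a coefficient of variation of 1.89%, against 20.6% in WT, where WT 3 was low.

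Mthfd1l (ENSMUSG00000040675, chromosome 10, 3973118 to 4167081, plus strand), the mitochondrial ligase that releases formate, moved far less. It was at 85.7, 85.5 and 109 CPM in dKO 1, dKO 2 and dKO 3 and at 53.5, 39.1 and 64.2 CPM in WT 1, WT 2 and WT 3. WT 2 was low and dKO 3 high within their groups. The log2 fold change was 0.84 ± 0.18 (edgeR adjusted p = 0.00374). Mthfd1l was not called against a 1.5-fold change (edgeR adjusted p = 0.0963), and without both WT 2 and dKO 3 its log2 fold change was 0.54 (adjusted p = 0.000271).

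Aldh1l2 (ENSMUSG00000020256, chromosome 10, 83487450 to 83534140, minus strand) encodes the mitochondrial formyltetrahydrofolate dehydrogenase, which burns surplus one-carbon units to carbon dioxide while making NADPH. Only 8, 26 and 11 counts were assigned to it in dKO 1, dKO 2 and dKO 3 and 4, 0 and 9 counts in WT 1, WT 2 and WT 3. Of the 6 libraries, dKO 2 alone was above the floor of 12 counts, so no fold is given and any difference was not detectable at this depth. The gene shares 1056 exonic bases with D10Wsu102e on the other strand, at 56.9 CPM in the libraries labelled dKO and 61.5 CPM in WT. Its cytosolic relative Aldh1l1 was also near 0, with 0 counts in every library labelled dKO and 0.0203 ± 0.0351 CPM in WT.

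The cytosolic members rose less than Shmt2 and Mthfd2, but the log2 fold change of Mthfd1 was not below that of the mitochondrial Mthfd1l. Mthfd1 (ENSMUSG00000021048, chromosome 12, 76255298 to 76319803, plus strand) encodes the cytosolic enzyme that joins formate to tetrahydrofolate and interconverts the carbon units. It was at 136, 141 and 148 CPM in dKO 1, dKO 2 and dKO 3 and at 72.3, 65.9 and 66.6 CPM in WT 1, WT 2 and WT 3. Both groups were tight, with coefficients of variation of 4.16% in the libraries labelled dKO and 5.17% in WT. Mthfd1 rose by 1.05 ± 0.07 on the log2 scale (edgeR adjusted p = 4.34e-06).

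Shmt1 (ENSMUSG00000020534, chromosome 11, 60788104 to 60811718, minus strand), the cytosolic serine hydroxymethyltransferase gene, showed the smallest rise. Levels were 37.8, 43.2 and 46.4 CPM in dKO 1, dKO 2 and dKO 3 and 27.3, 18.8 and 30.9 CPM in WT 1, WT 2 and WT 3. The lowest library labelled dKO was above the highest WT library, and WT 2 was low within its group. The log2 fold change was 0.73 ± 0.18 (edgeR adjusted p = 0.00646), and it was not called against a 1.5-fold change (edgeR adjusted p = 0.223). Without both WT 2 and dKO 3 it was 0.48 (adjusted p = 0.00281). Shmt1 shares 184 exonic bases with Smcr8 on the other strand, which itself rose by 0.97 ± 0.12.

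**Figure D3:**
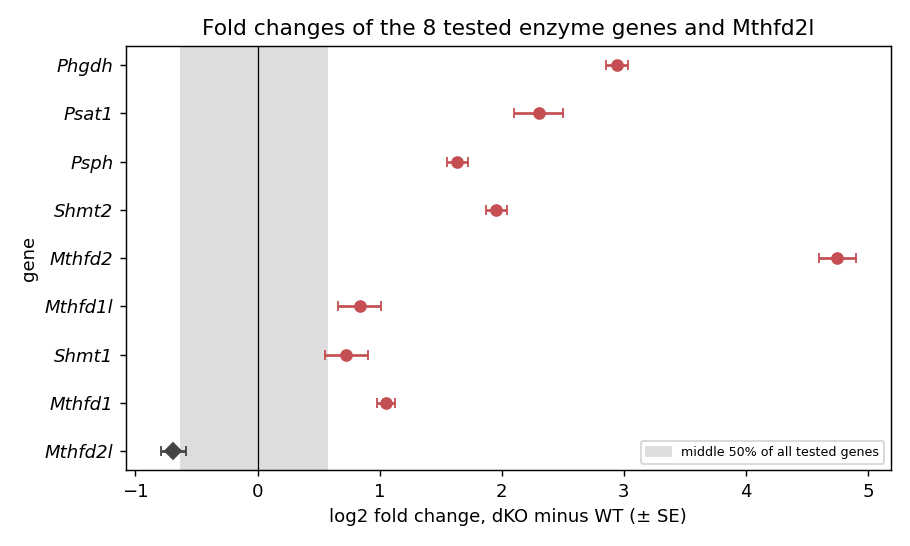
Points are log2 fold changes, dKO minus WT, with bars for the approximate SE from the fit over all genes, and the grey band runs between the quartiles of all tested genes, -0.63 and 0.57. Mthfd2 lies farthest right at 4.75, Shmt1 and Mthfd1l are the members closest to the band, and the paralogue Mthfd2l lies just past its other edge at -0.69.

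The order of the levels per kb differed between the groups. In the libraries labelled dKO it ran Phgdh, Psat1, Shmt2 at 97.9 ± 8.10, Mthfd2 at 90.6 ± 1.71, Mthfd1 at 31.9 ± 1.33, Mthfd1l at 21.04 ± 3.01, Psph at 20.96 ± 1.20 and Shmt1 at 10.9 ± 1.13 CPM per kb. Of those neighbours, Shmt2 and Mthfd2 overlapped, and so did Mthfd1l and Psph. In WT it ran Phgdh, Psat1, Shmt2 at 25.2 ± 1.51, Mthfd1 at 15.4 ± 0.79, Mthfd1l at 11.8 ± 2.84, Psph at 6.73 ± 0.46, Shmt1 at 6.61 ± 1.61 and Mthfd2 at 3.38 ± 0.70 CPM per kb. There the overlapping neighbours were Phgdh and Psat1, Psat1 and Shmt2, and Psph and Shmt1. Mthfd2 was therefore the lowest of the 8 in WT and the fourth highest in the libraries labelled dKO. By level per kb it ranked 504 in the libraries labelled dKO and 9223 in WT among 15741 genes with an annotated length.

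Ratios of 2 genes within 1 library were taken after adding 0.1 CPM per kb to each level, so library scaling enters them only through that addition. Shmt2 exceeded Shmt1 by 9.36, 8.44 and 8.89 times in dKO 1, dKO 2 and dKO 3, against 3.49, 4.87 and 3.35 times in WT 1, WT 2 and WT 3, all per kb. The groups did not overlap, and the mean log2 ratio differed by 1.21. Mthfd2 over Mthfd1 was 2.92, 2.81 and 2.78 in dKO 1, dKO 2 and dKO 3, above 1 in each, against 0.238, 0.258 and 0.177 in WT 1, WT 2 and WT 3, below 1 in each. This log2 ratio differed by 3.68. The ligase pair behaved otherwise: Mthfd1l over Mthfd1 was 0.632, 0.607 and 0.737 in dKO 1, dKO 2 and dKO 3 and 0.743, 0.597 and 0.965 in WT 1, WT 2 and WT 3. Those groups overlapped, with a log2 difference of -0.20 that stood at -0.02 without WT 3 and -0.45 without both WT 2 and dKO 3. Of the 4 pairs compared, including Mthfd2 over Mthfd2l, 3 gave a two-sided exact permutation p of 0.1, which is the smallest that 3 against 3 can give, and Mthfd1l over Mthfd1 gave an exact permutation p of 0.6. With 4 pairs, no adjusted p can pass 0.05 in this design.

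Mthfd2l (ENSMUSG00000029376, chromosome 5, 90931117 to 91021368), which encodes the other mitochondrial dehydrogenase and cyclohydrolase of adult tissues and is no member, fell. It was at 39.6, 42.8 and 33.7 CPM in dKO 1, dKO 2 and dKO 3 and at 61.5, 65.2 and 60.5 CPM in WT 1, WT 2 and WT 3, or -0.69 ± 0.10 on the log2 scale (edgeR adjusted p = 0.000451). Against a 1.5-fold change, Mthfd2l was not called (edgeR adjusted p = 0.1685). Mthfd2 made up 93.8%, 93.3% and 94.8% of the Mthfd2 and Mthfd2l signal per kb in dKO 1, dKO 2 and dKO 3, against 29.1%, 27.7% and 22.03% in WT 1, WT 2 and WT 3. The 2 genes together summed to 96.5 ± 1.06 CPM per kb in the libraries labelled dKO and 12.8 ± 0.978 CPM per kb in WT (SD, n = 3 each). Over 4 mitochondrial members the sum was 209.6 ± 12.7 CPM per kb in the libraries labelled dKO and 40.4 ± 3.73 CPM per kb in WT, and over both cytosolic members 42.9 ± 2.44 CPM per kb in the libraries labelled dKO and 21.98 ± 2.01 CPM per kb in WT.

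**Figure D4:**
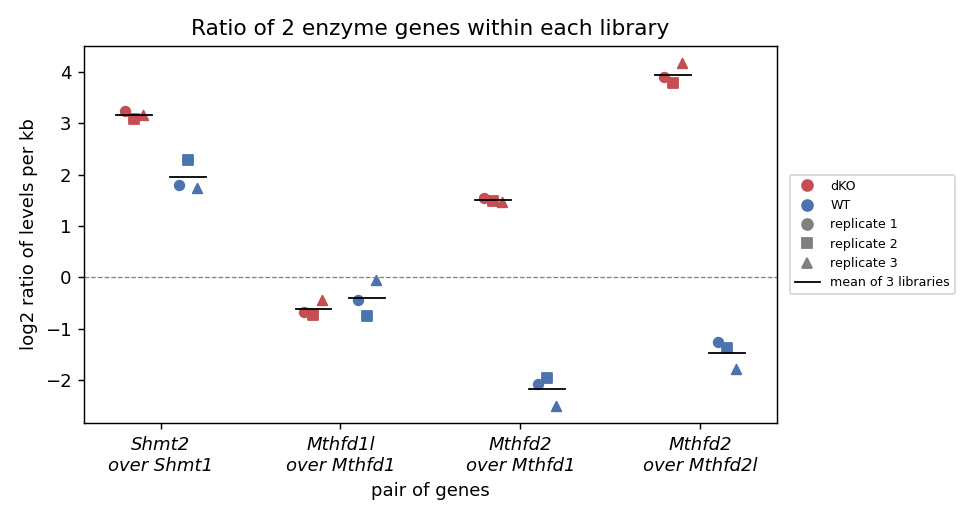
Each point is the log2 ratio of 2 genes' levels per kb within 1 library, red for libraries labelled dKO to the left and blue for WT, with black bars for the mean of 3. Mthfd2 over Mthfd1 and Mthfd2 over Mthfd2l lie above 0 in all 3 libraries labelled dKO and below 0 in all 3 WT libraries, while Mthfd1l over Mthfd1 overlaps.

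Other genes of the pathway moved in both directions. Over 9 lists with 116 genes, 98 were tested, of which 53 were higher, 22 lower and 23 not called, with a median log2 fold change of 0.47. Of 16 genes of folate transport and other folate enzymes, 13 were tested, and 5 were higher and 4 lower. Slc46a1, the proton-coupled folate transporter gene, rose by 1.88 ± 0.17, and Ggh, the gene of the hydrolase that shortens stored folate polyglutamates, fell by 2.25 on the log2 scale (edgeR adjusted p = 1.78e-05 and 3.81e-05). Tyms, the thymidylate synthase gene, did not pass, at 33.9 ± 1.36 CPM in the libraries labelled dKO and 29.5 ± 7.68 CPM in WT (SD, n = 3 each). Folr1, a folate receptor gene at 0 in every WT library, was at least 8.91-fold higher, at 2.37 ± 1.38 CPM in the libraries labelled dKO.

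Glycine cleavage, the mitochondrial route that draws a carbon unit from glycine, was nearly without its decarboxylase: Gldc stood at 0.110 ± 0.0953 CPM in the libraries labelled dKO and 0.172 ± 0.103 CPM in WT, at 6, 7 and 0 counts in dKO 1, dKO 2 and dKO 3 and 8, 3 and 13 counts in WT 1, WT 2 and WT 3, of which WT 3 alone is above the floor of 12 counts. Dld, which encodes a subunit shared with other mitochondrial complexes, rose by 1.12 ± 0.07, and Sardh, the sarcosine dehydrogenase gene, fell to 0.354 ± 0.303 CPM against 10.0 ± 0.342 CPM in WT (edgeR adjusted p = 2.63e-06 and 7.19e-05). In that list, 6 of 10 genes were tested, with 2 higher and 2 lower.

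Serine and glycine transporter genes were mostly higher, 7 of 10 tested with 1 lower, and 3 were higher against a 1.5-fold change. Sfxn1, a mitochondrial serine carrier gene, rose by 0.84 ± 0.08 and Slc1a4, a plasma membrane transporter of small neutral amino acids, by 1.22 ± 0.13 (edgeR adjusted p = 1.93e-05 and 4.83e-05). The exception, Sfxn3, a sideroflexin related to Sfxn1, fell to 117 ± 26.7 CPM in the libraries labelled dKO, against 208 ± 8.87 CPM in WT. Among genes listed as serine-consuming, 5 of 12 were higher and 5 lower. That list also counts the membrane protein genes Serinc1, Serinc2, Serinc3 and Serinc5, whose changes do not measure serine use. Serinc5 rose by 0.95 ± 0.09 and its relative Serinc1 fell by 0.57 on the log2 scale (edgeR adjusted p = 3.35e-05 and 8.33e-05).

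Users of the carbon units changed less evenly than the members. In the methionine cycle, 4 of 10 tested genes were higher and 2 lower, none of them past a 1.5-fold change, with Ahcy, which clears S-adenosylhomocysteine, at 0.72 ± 0.10 and Mat2b, a regulatory subunit of methionine adenosyltransferase, at -0.54 ± 0.08. In purine synthesis, 7 of 13 were higher and 4 lower. Impdh1, a gene of guanine nucleotide synthesis, rose by 2.43 ± 0.13, and Prps2, which makes the ribose phosphate donor, by 1.31 ± 0.09 (edgeR adjusted p = 1.07e-06 and 4.76e-06). Gart and Atic, whose enzymes take up formyl groups from folate, also rose, by 0.91 ± 0.11 and 0.54 ± 0.09, and were taken after their values were seen. Gart shares 1014 exonic bases with an antisense gene. Upstream, 5 of 7 tested glycolytic genes around 3-phosphoglycerate were higher and none lower. Pgk1, whose enzyme makes 3-phosphoglycerate, rose by 1.66 ± 0.07 and the enolase gene Eno3 by 2.07 ± 0.12.

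Regulators and other ATF4 targets were also followed. Atf4 mRNA was at 379.9, 390.4 and 408 CPM in dKO 1, dKO 2 and dKO 3 and at 163, 160 and 165 CPM in WT 1, WT 2 and WT 3, a rise of 1.27 ± 0.06 on the log2 scale (edgeR adjusted p = 6.32e-07). ATF4 is regulated largely at translation, which was not measured. Nfe2l2, the gene of NRF2, another known activator of serine synthesis genes, fell by 1.03 on the log2 scale. Among 10 tested regulators, 5 were higher and 3 lower. Of 17 tested eIF2alpha kinases and ATF4 targets, 13 were higher, 1 lower and 3 not called, with a median log2 fold change of 1.33. Asns was at 303, 292 and 343 CPM in dKO 1, dKO 2 and dKO 3 and at 21.9, 14.9 and 22.9 CPM in WT 1, WT 2 and WT 3, a rise of 3.97 ± 0.17, while Slc7a11, the cystine transporter gene, was taken after its values were seen and did not pass, at 39.6 ± 6.07 CPM in the libraries labelled dKO and 47.4 ± 1.80 CPM in WT. The phosphatase subunit gene Ppp1r15a rose by 2.76 ± 0.14.

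**Figure D5:**
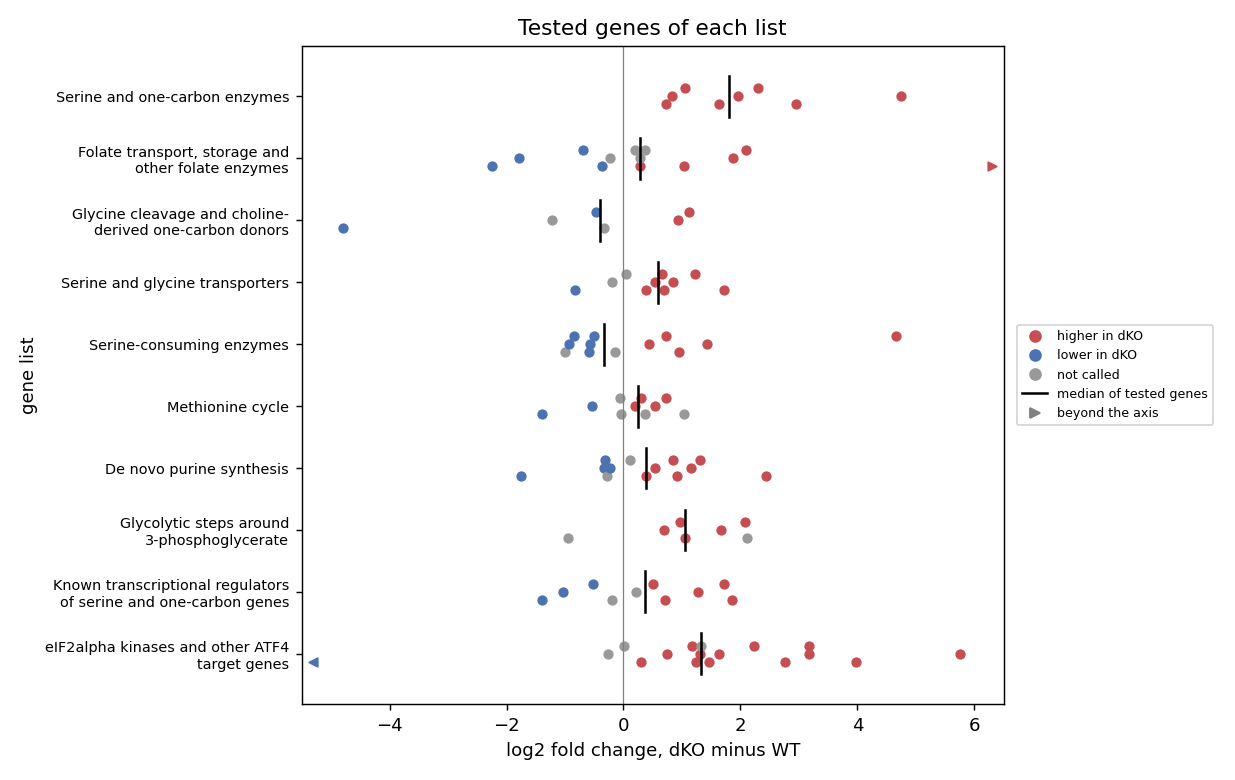
Each point is a tested gene by its log2 fold change, dKO minus WT, with members in the top row, genes of 9 pathway lists below, red for higher and blue for lower calls in the libraries labelled dKO, and black bars for list medians. All 8 member points are red with a median of 1.80, while 8 of the 9 other lists hold both red and blue points; the arrowheads mark Folr1 and Stc2, which are at 0 in every library of 1 group.

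The genes whose deviations from the WT mean over the 6 libraries were most like those of Mthfd2, among 10738 genes with a mean of at least 5 CPM, were Amotl2, Col12a1, Ccn4, Sema3e and Ciart. Their root mean square differences from Mthfd2 were 0.165, 0.237, 0.257, 0.267 and 0.278 on the log2 scale. Likeness by this measure rests mainly on a similar difference between the groups, and shared regulation was not tested. Their log2 fold changes were 4.76, 4.45, 5.05, 5.00 and 4.81, beside 4.75 for Mthfd2. Amotl2, an angiomotin family gene, averaged 934 CPM in the libraries labelled dKO and 34.5 CPM in WT, and Ccn4, a matricellular protein gene, averaged 673 CPM in the libraries labelled dKO and 20.3 CPM in WT.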

How the data were processed

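The authors deposited estimated counts per gene for 48820 Ensembl genes in 6 libraries, as whole numbers without normalization, once per sample and once as a series table, and both were equal. Tools named per the submitters' processing notes are StringTie 2.2.1 and HISAT2 2.2.1, with the build GRCm38 (mm10). Annotation release, counting step and strand setting: not given in the sources used here. Symbols, positions and exon lengths came from GENCODE M21, which matched 48058 genes. Values pile up at 4, so 1 read pair may add 4 counts, and genes at or near 0 were held to a floor of 12 counts (3 read pairs). It covers counting error only.

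edgeR 4.0.16 (R 4.3.3) tested differences over all 15807 genes passing filterByExpr, with TMM scaling, robust quasi-likelihood F-tests and genotype as the only term. Each SE was approximated as |log2 fold change| over the root of F. A second call rule used glmTreat against 1.5-fold. CPM values carry TMM scaling, and CPM per kb divides them by the union of annotated exons. Ratios used a pseudocount of 0.1 CPM per kb and exact permutation tests over libraries. The test was checked on simulated counts. DESeq2 1.42.0 and limma 3.58.1 were alternatives.

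Members and lists were chosen with earlier results of these data known. The rule named all members, the 2 genes with the smallest adjusted p in each other list, the relatives Mthfd2l and Aldh1l1, and the 5 genes most like Mthfd2. Marker genes, overlapping genes and Folr1, Tyms, Gldc and Sfxn3 were named after their values were seen, as were those marked so in the text. The ratio of Aldh1l2 to Aldh1l1 was not computed, since both were near 0.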

Additional observations from a re-analysis of the deposited data

How the results depend on the processing

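The 8 members were called higher under each of 15 alternatives: other scalings (RLE, upper quartile), no count filter or a stricter one, DESeq2, limma-voom, counts divided by 4, a replicate block, and leaving out each library or both WT 2 and dKO 3. The count of members past a 1.5-fold change was 6 or 7 over its 10 alternatives. Calls over all genes ran from 4049 to 5101 higher and 3973 to 5038 lower, and leaving out single libraries gave 4049 to 4637 higher and 3973 to 4581 lower. The 53 higher and 22 lower calls of the other lists ran from 49 to 59 and from 17 to 28. No call of a tested member or of Mthfd2l changed at the 0.05 threshold, and none of the 4 ratios changed direction under its 10 alternatives. Without WT 3, and with the block, 7 members passed 1.5-fold. With a replicate block, 8 members and 4338 genes were called higher and 4320 lower. The labels do not say whether same-numbered libraries were paired. Deviations of same-numbered libraries correlated at -0.07, 0.06 and 0.09 across genes, and the best match was not always the same number. With 3 libraries per group, these values cannot decide whether the libraries were paired. The Shmt2 over Shmt1 difference of 1.21 gave an exact sign-flip p of 0.25 with the block, the smallest that 3 pairs allow. Depth limits Aldh1l2, Aldh1l1 and Gldc.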
